A study of Mus musculus with 8 samples.

Results

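Neurofilaments are the intermediate filaments of neurons and fill the axon alongside microtubules. The genes examined here were *Nefl*, *Nefm*, *Nefh*, *Ina* and *Prph*, chosen by gene name as 5 of the 45706 genes in the deposited tables. They encode the light, medium and heavy neurofilament chains, α-internexin and peripherin. The light chain can assemble on its own, whereas the medium and heavy chains join it as copolymers and carry long tails that project from the filament. The tails hold repeats of Lys-Ser-Pro, whose serine is a site of phosphorylation. α-Internexin is a further subunit of central neurofilaments, and peripherin is best known from peripheral nerves. Neurofilament content is a known determinant of axon calibre.

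The samples were ribosome-associated RNA of PV+ interneurons from the cortex of PvalbFlp/+;Neurod6Cre/+ mice aged P42 to P70. All mice, the controls included, carried both alleles and had been infected at P1 with an AAV that holds HA-tagged RPL10a and myc-tagged hM3Dq between flox and fdio elements. This virus needs Flp to be switched on and is removed by Cre, which Neurod6 drives in pyramidal cells. It adds an HA-tagged ribosomal protein, by which the RNA is captured, and the receptor hM3Dq, which raises the activity of the cell when its ligand clozapine N-oxide (CNO) is given. In 4 samples the mice received CNO at 1 mg/kg in 5 injections over about 48 h, and in 4 samples they received vehicle. Each sample pooled tissue from 4 brains, so that differences between single animals were not measured, and no group received CNO without the receptor.

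Values are given in 2 units. TPM, which takes the length of the transcript into account, served to compare genes with each other, and CPM, the share of a library taken by a gene after TMM normalization, served to compare treatments. The total of estimated counts per sample ran from 44064161 to 49413273, which puts 3 counts at 0.0607 to 0.0681 CPM. *Fos*, an immediate early gene that rises with neuronal activity, had a log2 fold change (CNO over vehicle) of 1.93 ± 0.22 (SE), with an adjusted p of 0.0520 by the edgeR quasi-likelihood test, just short of the threshold of 0.05. The sample vehicle 1 stood apart. Its summed TPM of 12 PV+ interneuron markers was 2360, against 5589 to 5835 in the other vehicle samples and 4774 to 7469 in the CNO samples. No marker of any of the 8 cell type lists was at 0 in any sample. In RNA captured from pooled tissue, fewer cells of a type, less RNA per cell and a weaker capture of tagged ribosomes cannot be told apart. Results below that vehicle 1 turned or moved by more than 1.5 times are also given without it.

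The 5 genes lie on 4 chromosomes of GRCm38. *Nefl* (ENSMUSG00000022055) is at chr14:68083863-68089095 on the plus strand and *Nefm* (ENSMUSG00000022054) at chr14:68082590-68124846 on the minus strand. *Nefh* (ENSMUSG00000020396) is at chr11:4938754-4948064 on the minus strand, *Ina* (ENSMUSG00000034336) at chr19:47014698-47025327 on the plus strand and *Prph* (ENSMUSG00000023484) at chr15:99055174-99058978 on the plus strand. The main transcripts of *Nefl*, *Nefm*, *Nefh* and *Ina* have 4, 3, 4 and 3 exons, and that of *Prph* has 9. Their reading frames encode 543 residues for *Nefl*, 848 for *Nefm*, 1090 for *Nefh*, 501 for *Ina* and 475 for *Prph*. Identity over the aligned residues was highest between *Ina* and *Prph*, at 52.6% of 399 residues. It was lowest between *Nefm* and *Nefh*, at 42.5%, but there over a longer stretch of 756 residues. The reading frame of *Nefh* holds 51 Lys-Ser-Pro triplets and that of *Nefm* holds 4, while *Nefl*, *Ina* and *Prph* hold none.

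The coding stretches of 150 bases richest in these triplets are shown because they carry the feature that sets the heavy and medium chains apart from the others. Both are read from the GRCm38 reference on the minus strand, 5′ to 3′, and capitals mark the Lys-Ser-Pro codons. The first, at chr11:4940920-4941069, encodes residues 517 to 566 of *Nefh* and holds 8 triplets. The second, at chr14:68121063-68121212, encodes residues 458 to 507 of *Nefm* and holds 2.
Nefh: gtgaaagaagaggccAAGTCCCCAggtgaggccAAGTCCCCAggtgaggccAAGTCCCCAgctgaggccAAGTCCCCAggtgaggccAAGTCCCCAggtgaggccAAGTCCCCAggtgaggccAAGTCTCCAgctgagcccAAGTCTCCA
Nefm: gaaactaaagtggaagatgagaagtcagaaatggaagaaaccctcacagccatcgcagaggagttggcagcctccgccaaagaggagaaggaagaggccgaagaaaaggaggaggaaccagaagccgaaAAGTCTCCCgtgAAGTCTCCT

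*Nefl* and *Nefm* share transcribed sequence on opposite strands, which bears on how their reads were divided. The transcript Nefm-202 ends in an exon that lies opposite exon 1 of *Nefl* over 1108 bases, chr14:68083863-68084970, or 32.8% of the *Nefl* transcript. The transcript Nefm-201 does not overlap *Nefl*. Within the overlap, 144 bases at chr14:68084827-68084970 are coding on both strands. They are shown as the plus strand reads them, 5′ to 3′, because reads from here could be given to either gene when strand is not used.
Nefl: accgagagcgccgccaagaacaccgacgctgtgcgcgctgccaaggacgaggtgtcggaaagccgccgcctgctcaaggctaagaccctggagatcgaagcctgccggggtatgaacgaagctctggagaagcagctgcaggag

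**Figure D1:**
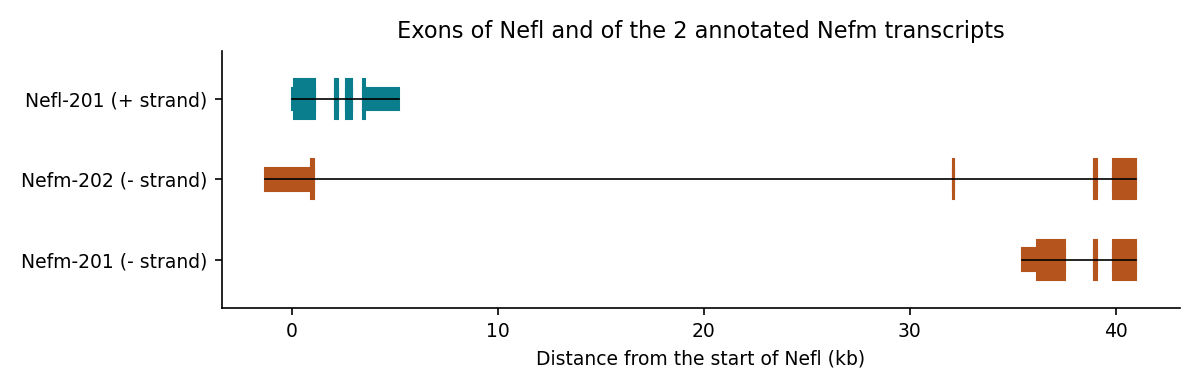
Exons of Nefl-201 and of the 2 annotated transcripts of Nefm, plotted by distance from the start of Nefl in kb, with coding parts drawn tall and other exonic parts drawn low. The last exon of Nefm-202 lies opposite the first exon of Nefl, and Nefm-201 ends well before it.

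The deposited counts show that reads were in fact divided there. The estimated counts of *Nefl* and of *Nefm* were not whole numbers in any of the 8 samples, but their sum was whole in 8 of 8, within 0.002 counts. The same held for *Ina* and *Nt5c2*, a nucleotidase gene of which a transcript overlaps *Ina* by 456 bases (chr19:47014698-47015153, 14.1% of the *Ina* transcript). The counts of *Nefh* and *Prph* were whole in all samples. The share of Nefm-202 follows from the mean transcript length that counts and TPM together imply. That length was 3380 nt for *Nefl*, 3994 nt for *Nefh* and 3240 nt for *Ina* in every sample, the lengths of their annotated transcripts. For *Nefm* it was 3340 to 3351 nt, between the 3334 nt of Nefm-201 and the 3680 nt of Nefm-202. Nefm-202 accordingly received 1.82% to 5.42% of the *Nefm* counts, with a mean of 3.22% ± 1.51 (SD, n = 4) in CNO samples and 3.09% ± 1.14 (SD, n = 4) in vehicle samples. In counts this was 301 to 799.5 per sample, or 0.551% to 1.51% of those of *Nefl*. The share was highest in replicate 2 of both groups, whose length subtracted by the quantification was also the shortest (177.2 and 171.9 nt against 184.8 to 205.3 nt). Whether these reads came from Nefm-202 or from *Nefl* cannot be told apart here, and the part of the subtracted length in the share was not tested.

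The 4 central neurofilament genes were abundant and *Prph* was low. By mean TPM over the 8 samples among the 17495 genes tested, *Nefl* ranked 97, *Nefh* 340, *Ina* 457, *Nefm* 629 and *Prph* 15633. All 5 passed the filter on low counts. The levels of *Nefl* were 724, 793, 719 and 661 TPM in CNO 1 to 4 and 989, 799.8, 774 and 768 TPM in vehicle 1 to 4. Those of *Nefh* were 353, 392, 350.4 and 354 TPM in CNO 1 to 4 and 302, 352, 331 and 341 TPM in vehicle 1 to 4. Vehicle 1 was thus the highest sample for the light chain and the lowest for the heavy chain.

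*Ina* varied most among the abundant genes. It was at 341, 256, 287 and 353 TPM in CNO 1 to 4 and at 192, 300.4, 309 and 292 TPM in vehicle 1 to 4, a coefficient of variation of 17.3% over all 8 samples. *Nefm* was the most even, at 234, 223, 226 and 229.8 TPM in CNO 1 to 4 and 219, 247, 253 and 235 TPM in vehicle 1 to 4, with a coefficient of variation of 4.95%. Vehicle 1 was the lowest sample for both genes. *Prph* had 18 to 35 counts per sample, or 0.533 to 1.06 TPM, which is above the 3 counts taken as the floor but too few to resolve a modest difference.

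**Figure D2:**
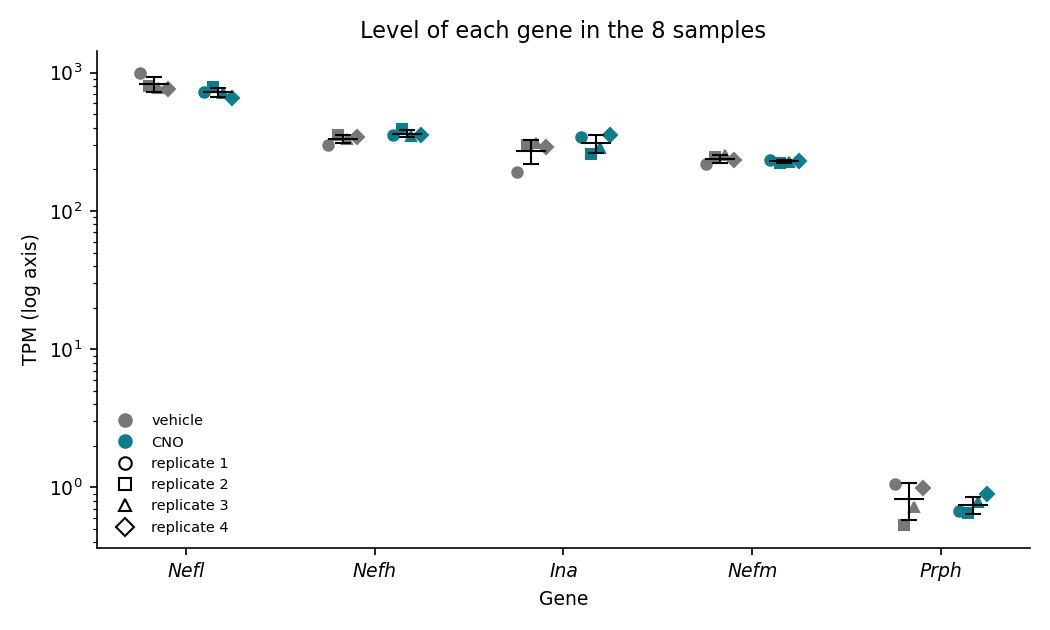
TPM of the 5 genes (log axis) in each vehicle sample (grey) and CNO sample (teal), with symbols for replicates and the mean ± SD of 4 samples in black. Nefl lies at 661 to 989 TPM, Nefh, Ina and Nefm between 192 and 392 TPM, and Prph between 0.533 and 1.06 TPM.

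The order of levels was *Nefl*, *Nefh*, *Ina*, *Nefm*, *Prph*. Each neighbouring pair was compared within samples by a two-sided exact sign-flip permutation test over the 8 samples, with adjustment over the 4 pairs. The smallest p this design allows is 0.0078. The order was itself taken from the mean TPM of these same 8 samples. The p-values are therefore no independent support for it. A pair with the same order in 8 of 8 samples always gives the smallest p, whatever the size of the difference. Its p thus adds nothing to that count. *Nefl* exceeded *Nefh* in 8 of 8 samples, by 2.23-fold in the geometric mean (adjusted p = 0.0104, exact permutation). *Nefh* exceeded *Ina* in 8 of 8 samples by 1.21-fold (adjusted p = 0.0104, exact permutation), although in CNO 4 the ratio was only 1.004. *Ina* exceeded *Nefm* in 7 of 8 samples by 1.23-fold (adjusted p = 0.0156, exact permutation), with the opposite order in vehicle 1, at a ratio of 0.878. *Nefm* exceeded *Prph* by 302-fold in 8 of 8 samples (adjusted p = 0.0104, exact permutation). With the 4 vehicle samples alone the smallest p allowed is 0.125, so the order cannot be tested there.

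As shares of the summed TPM of the 4 abundant genes, *Nefl* made up 41.4% to 47.6% in CNO samples and 46.4% to 58.1% in vehicle samples. *Ina* made up 15.4% to 22.1% and 11.3% to 18.6%, and *Nefm* 13.4% to 14.4% and 12.9% to 15.2%, in the same order. The share of *Nefh* was 21.4%, 23.5%, 22.1% and 22.2% in CNO 1 to 4 and 17.8%, 20.7%, 19.9% and 20.8% in vehicle 1 to 4, with no overlap between groups. The summed TPM itself differed little, at 1624 ± 40.3 (SD, n = 4) for CNO and 1676 ± 31.3 (SD, n = 4) for vehicle, with overlapping ranges.

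**Figure D3:**
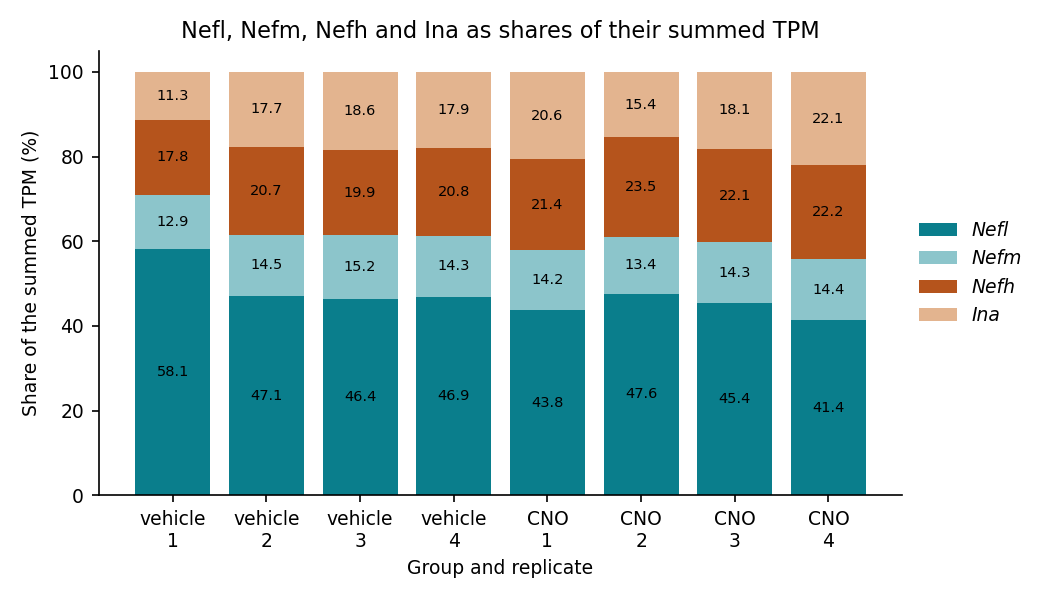
Shares of Nefl, Nefm, Nefh and Ina in their summed TPM (%, stacked to 100) for each vehicle and CNO sample. Nefh takes 21.4% to 23.5% in the CNO samples and 17.8% to 20.8% in the vehicle samples, and vehicle 1 has the largest share of Nefl, at 58.1%.

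Of the 6 ratios among these genes, 2 did not overlap between treatments, and both involve *Nefh*. The TPM ratio of *Nefl* to *Nefh* was 2.05, 2.02, 2.05 and 1.87 in CNO 1 to 4 and 3.27, 2.27, 2.34 and 2.25 in vehicle 1 to 4. The ratio of *Nefh* to *Nefm* was 1.51, 1.75, 1.55 and 1.54 in CNO 1 to 4 and 1.38, 1.43, 1.31 and 1.45 in vehicle 1 to 4. Without vehicle 1 the *Nefl* to *Nefh* ratio averaged 2.29 in vehicle samples against 2.00 ± 0.0879 (SD, n = 4) in CNO samples, and the ranges remained apart. These ratios were singled out after their values were seen and are given without a test. Both ratios and the share of *Nefh* hold the values of *Nefh*, whose CPM also did not overlap between groups. They are therefore not separate findings. The share of all gene pairs with ratios that do not overlap was not determined.

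None of the 5 genes passed the test between treatments, and none of the 17495 genes tested did, 0% (adjusted p under 0.05, more than 1.5-fold, mean TPM above 1; edgeR quasi-likelihood test with Benjamini-Hochberg adjustment). An unadjusted p under 0.05 was found for 716 genes, 4.09% of those tested, with 1.44% higher and 2.65% lower under CNO, and none of the 5 was among them. DESeq2 called 10 genes and the likelihood ratio test with robust dispersion called 12, again with none of the 5. Of the genes tested, 2.42% had TMM-normalized values that did not overlap between groups, in either direction, and 1 of the 5 did so. This was *Nefh*.

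*Nefh* was at 644, 658, 639 and 668 CPM in CNO 1 to 4 and at 492, 608, 596 and 584 CPM in vehicle 1 to 4. Every CNO sample lay above every vehicle sample. The means were 652 ± 13.2 (SD, n = 4) and 569.8 ± 52.9 (SD, n = 4), a log2 fold change of 0.19 ± 0.11 (SE), with a 95% interval of −0.043 to 0.43. A two-sided exact permutation test over the 70 assignments of samples gave p = 0.0286, the smallest that 4 against 4 can give. Groups without overlap always give this p, so it adds nothing to the lack of overlap. The same test gave 0.0857 for *Nefl*, 0.343 for *Ina*, 0.886 for *Nefm* and 0.971 for *Prph*, without adjustment over the 5 genes. For *Nefh* the edgeR test gave an unadjusted p of 0.0993 and an adjusted p of 0.817. DESeq2 gave it an unadjusted p of 0.0278 and an adjusted p of 0.842. Over all alternatives run for this gene the adjusted p lay between 0.480 and 1.00. Without vehicle 1 the log2 fold change was 0.13. In TPM the groups overlapped, since vehicle 2, at 352 TPM, exceeded CNO 3.

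*Nefl* was at 1106, 1117, 1099 and 1045 CPM in CNO 1 to 4 and 1349, 1158, 1168 and 1103 CPM in vehicle 1 to 4. The groups overlapped through vehicle 4 alone, which lay below CNO 1 and CNO 2. The log2 fold change was −0.13 ± 0.11 (SE; 95% interval −0.38 to 0.12; edgeR adjusted p = 0.817), and −0.070 without vehicle 1. The exact permutation p was 0.0857. With the Nefm-202 counts moved to *Nefl*, the value was −0.128 for *Nefl* and 0.0068 for *Nefm*. With all *Nefl* and *Nefm* counts summed, it was −0.098. That sum also holds the *Nefm* counts that were not given to Nefm-202, so it is not a value of *Nefl* alone.

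*Nefm* differed between groups by less than the spread, at 342 ± 20.9 CPM (SD, n = 4) for CNO and 339.8 ± 34.8 CPM (SD, n = 4) for vehicle. Its log2 fold change of 0.0072 ± 0.11 (SE; 95% interval −0.23 to 0.25; edgeR adjusted p = 0.990) turned to −0.059 without vehicle 1 and to −0.047 when scaled by library size only. Its direction is therefore not set by these data.

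*Ina* was at 498, 345, 419 and 533 CPM in CNO 1 to 4 and at 251, 416, 446 and 401 CPM in vehicle 1 to 4. CNO 1 and CNO 4 lay above all vehicle samples, and CNO 2 lay below all but vehicle 1. The log2 fold change of 0.25 ± 0.19 (SE; 95% interval −0.18 to 0.67; edgeR adjusted p = 0.817) fell to 0.085 without vehicle 1. Summed with *Nt5c2* it was 0.23. *Prph* was at 0.486 to 0.694 CPM under CNO and 0.384 to 0.716 CPM under vehicle, a log2 fold change of −0.036 ± 0.28 (SE; edgeR adjusted p = 0.978), which turned to 0.065 without vehicle 1.

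**Figure D4:**
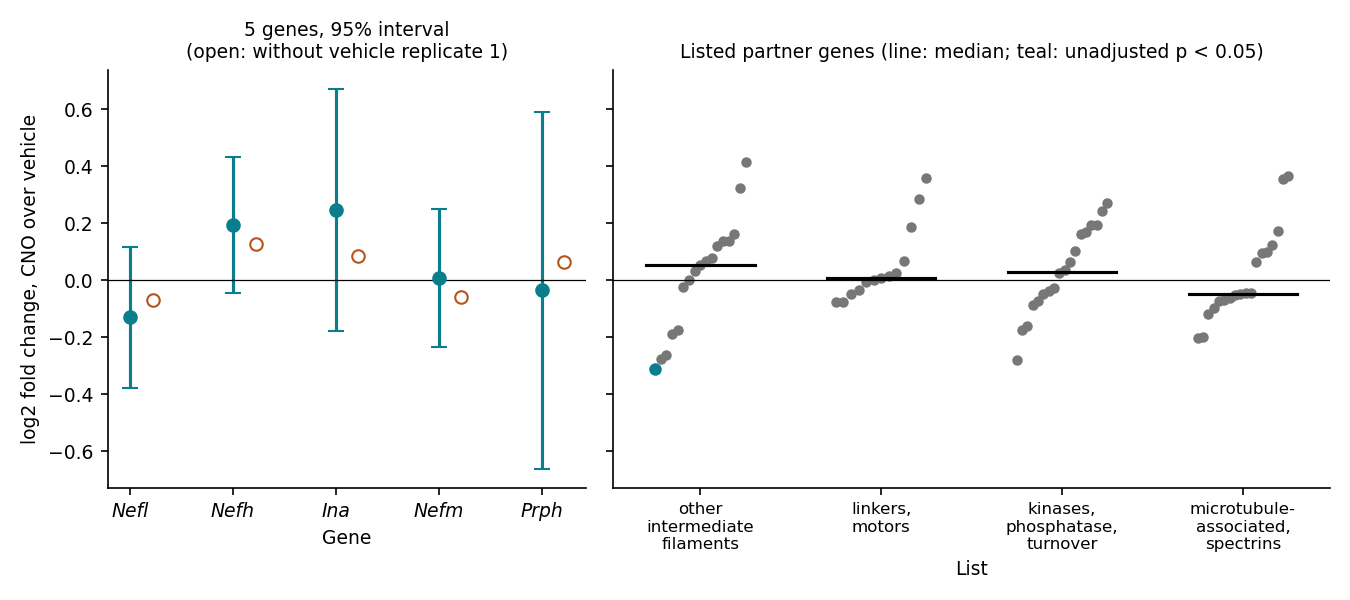
Left, log2 fold change (CNO over vehicle) of the 5 genes with 95% intervals, and as open circles the value without vehicle replicate 1. Right, the tested genes of the 4 lists of filament partners, with the median as a line and genes at an unadjusted p under 0.05 in teal; all 5 intervals on the left include 0, and Synm is the only teal point.

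The other intermediate filament genes were low in these samples. Of 24 listed, 17 were tested, and the 7 others were keratin genes with too few counts. The most abundant were *Synm* (synemin, which links intermediate filaments to the cell periphery) at 67.9 TPM, *Lmna* (a nuclear lamin) at 59.7 TPM and *Iffo1* at 51.6 TPM, all below *Nefm*. *Lmna* had a log2 fold change of 0.055 ± 0.12 (SE), or 0.14 without vehicle 1, and *Iffo1* one of 0.14 ± 0.090 (SE). Of the 17 tested, 11 had a positive and 6 a negative fold change, with a median of 0.055 against 0.0014 for all genes tested, and none passed the adjusted test. In this list only *Synm* was at an unadjusted p under 0.05, with a log2 fold change of −0.31 ± 0.11 (SE) and an adjusted p of 0.817 by edgeR. Its groups did not overlap, and the value without vehicle 1 was −0.29. *Lmnb1*, a lamin of the nuclear envelope, also had no overlap, at −0.26 ± 0.13 (SE).

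Genes that link filaments to other structures or carry them along axons were expressed and none passed the test. Of 14 linkers and motors 13 were tested, with 8 positive, 5 negative, none at an unadjusted p under 0.05 and a median of 0.0079, which turned to −0.029 without vehicle 1. *Klc1*, a light chain of kinesin, was at 567 TPM with a log2 fold change of 0.19 ± 0.16 (SE), or 0.059 without vehicle 1. *Dynll1*, a dynein light chain, was at 381 TPM with −0.047 ± 0.11 (SE), or −0.084 without vehicle 1. *Kif5a*, the kinesin heavy chain linked to neurofilament transport, was at 284 TPM with 0.0079 ± 0.13 (SE), which turned to −0.0063 without vehicle 1.

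Kinases, phosphatase subunits and turnover genes acting on filaments numbered 18, all tested, with 10 positive, 8 negative, none at an unadjusted p under 0.05 and a median of 0.031, which turned to −0.027 without vehicle 1. *Stub1*, a ubiquitin ligase, was at 246 TPM with a log2 fold change of 0.16 ± 0.15 (SE), or 0.021 without vehicle 1. *Trim2*, a ubiquitin ligase that acts on the light chain, was at 196 TPM with 0.24 ± 0.13 (SE). Without vehicle 1, *Cdk5r2*, an activator of the kinase Cdk5 that phosphorylates the tails, was at −0.24 with an unadjusted p of 0.0396 by edgeR, against −0.17 in all samples. The share of all genes tested with an unadjusted p under 0.05 in that fit was not determined.

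The 18 axonal microtubule-associated proteins and spectrins were all tested, with 7 positive, 11 negative, none at an unadjusted p under 0.05 and a median of −0.047. The most abundant was *Map1b*, which stabilizes axonal microtubules, at 1511 TPM with a log2 fold change of −0.048 ± 0.16 (SE), which turned to 0.014 without vehicle 1. The stathmins *Stmn3* and *Stmn1*, which regulate microtubule assembly, were at 1305 and 937 TPM with 0.35 ± 0.25 (SE) and 0.065 ± 0.11 (SE), and with 0.13 and −0.026 without vehicle 1. Only *Map1b*, *Stmn3* and *Stmn1* of these partners exceeded *Nefl* in mean TPM.

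The lists of cell type markers had different signs between treatments. All 12 PV+ interneuron markers had a positive fold change, with a median of 0.43, or 0.19 without vehicle 1, and 1 of them, *Gad2*, was at an unadjusted p under 0.05. All 12 pyramidal cell markers had a negative one, with a median of −0.13, or −0.077 without vehicle 1. The summed TPM of the pyramidal cell markers was 1418 to 1960 in CNO samples and 1606 to 2293 in vehicle samples. That of 9 layer 5 pyramidal cell markers, cells that also hold much neurofilament, was 368 to 409 and 427 to 513. These sums did not overlap, but *Pcp4*, at a mean of 257 TPM, made up most of them, and the mean log2 CPM of the 9 markers did overlap, at 4.62 to 4.76 and 4.73 to 4.89. Of the 9 markers 7 were negative and 2 positive, with a median of −0.11, or −0.14 without vehicle 1. *Ldb2* alone was at an unadjusted p under 0.05, at −0.24, where 2.65% of all genes tested were lower at such a p. Without vehicle 1, 3 markers, all negative, were at such a p. The share of all genes tested in that fit was not determined, so this count has nothing to be set against. All 8 oligodendrocyte and all 7 microglia markers were negative, with medians of −0.23 and −0.24, or −0.18 and −0.16 without vehicle 1. The microglia marker *P2ry12* was at an unadjusted p under 0.05, at −0.38. Without vehicle 1 it was at −0.24, with an unadjusted p of 0.14 by edgeR. Of 8 blood vessel markers 7 were positive, with a median of 0.26, or 0.17 without vehicle 1. Astrocyte and SST or VIP interneuron markers were 3 positive and 5 negative each, with medians of −0.089 and −0.058, or −0.024 and −0.096 without vehicle 1. None of these markers passed the adjusted test.

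The 5 genes differed in their relation to these markers. A marker index was taken as the mean log2 CPM of the 12 PV+ interneuron markers minus that of the 12 pyramidal cell markers. It was −0.082 in vehicle 1, 1.29 to 1.74 in vehicle 2 to 4 and 1.17 to 2.32 in CNO samples. Pearson's r over the 8 samples was 0.97 for *Ina* (permutation p = 0.000124, adjusted over 5 relations 0.000620), with Spearman's rho 0.98 (permutation p = 0.000397, adjusted 0.00198). Leaving out vehicle 1 and CNO 4, the samples farthest from the median index, r was 0.86. The level of *Ina* was lowest in vehicle 1 and highest in CNO 4, the ends of the index. The share of all genes tested that reach such an r was not determined, so the relation may not be particular to *Ina*. The permutations shuffled samples across both treatments.

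For *Nefm*, r was 0.82 (permutation p = 0.0110, adjusted 0.0184), rho 0.76 (permutation p = 0.0368, adjusted 0.0919) and r without both samples 0.60. For *Nefl*, r was −0.92 (permutation p = 0.00734, adjusted 0.0184), rho −0.62 (permutation p = 0.115, adjusted 0.192) and r without both samples −0.21. For *Nefh*, r was 0.84 (permutation p = 0.0300, adjusted 0.0375), rho 0.52 (permutation p = 0.197, adjusted 0.246) and r without both samples −0.14. The relations of *Nefl* and *Nefh* thus rest on those samples. For *Prph*, r was −0.089 (permutation p = 0.844, adjusted 0.844) and rho −0.024 (permutation p = 0.977, adjusted 0.977), with r of 0.46 without both samples. The treatment groups are too small, at 4 samples each, for a correlation within them.

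**Figure D5:**
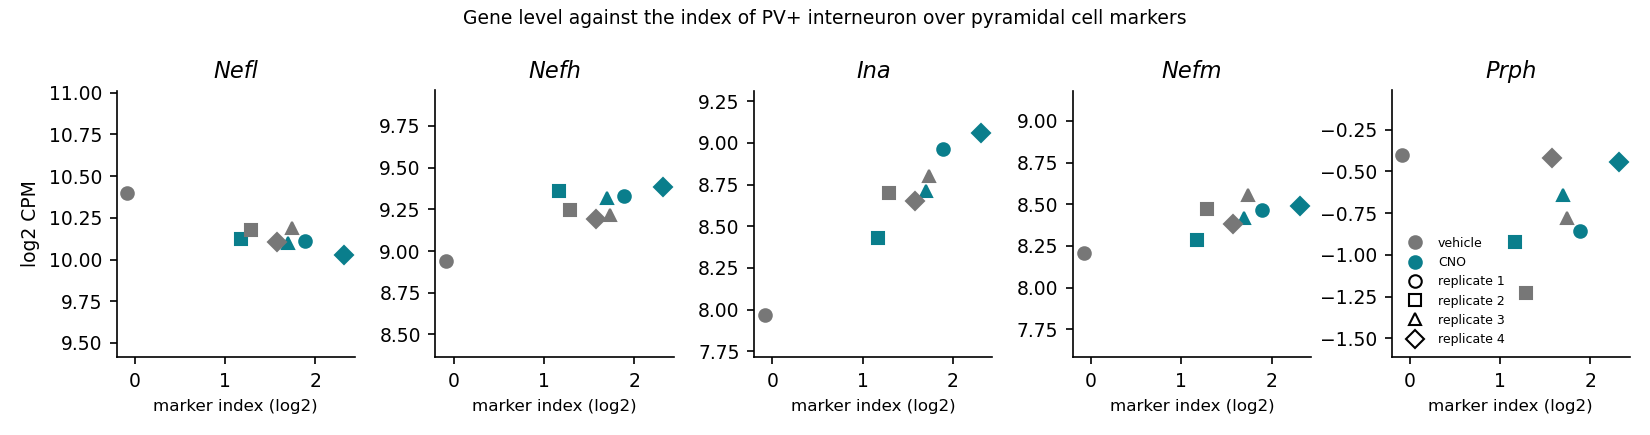
Log2 CPM of the 5 genes against the index of PV+ interneuron over pyramidal cell markers (log2), with vehicle samples in grey, CNO samples in teal and every panel spanning the same number of log2 units. Ina rises along the whole index (r = 0.97), whereas Nefl and Nefh differ mainly between vehicle 1, at an index of −0.082, and the other samples.

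With the index as a covariate, the log2 fold change was 0.12 for *Nefh*, −0.046 for *Nefl*, −0.097 for *Nefm*, −0.046 for *Ina* and −0.0064 for *Prph*, and none passed the edgeR test. The part of cell composition in the levels was not tested.

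Genes whose log2 CPM followed each gene most closely over the 8 samples were taken from 15036 genes with a mean TPM above 1 that are in none of the lists of filament, partner and marker genes. For *Nefl* they were *Rfc5* (r = 0.99), *Gm2065* and *Gm9989* (both 0.98). For *Nefm* they were *B4gat1* (0.99), *Imp3* and *Ubac1* (both 0.98), and for *Nefh* *Brsk1*, *Rps6ka6* and *Lrrc20* (all 0.97). *Ina* was followed by *Ufc1* (0.999), *Bnip3l* and *Atpaf1* (both 0.998), and *Prph* by *Serinc4*, *Fzd1* (both 0.95) and *Atl2* (0.91). These samples share libraries and vehicle 1, and the genes were selected for their r, so the correlations are a description only. Without the 2 samples farthest from the median of the gene itself, r remained at 0.99 or above for the 3 genes following *Ina* and was 0.80 for *Gm9989*.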

How the data were processed

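RNA-seq of ribosome-associated RNA comprised 4 CNO and 4 vehicle samples. Per the submitters' processing notes, Trim Galore, STAR and Salmon were used on the GRCm38 build. The authors deposited estimated counts per gene, not normalized, and TPM. Libraries were made with the SMARTer Ultra Low kit, and the use of strand is not given in the sources used here. Nothing beyond the labels ties replicate numbers to shared days or animals.

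Rounded counts were fitted with edgeR 4.0.16 (R 4.3.3). A gene was dropped if at least 4 samples had below 10 counts, and CNO was compared with vehicle by TMM normalization and the quasi-likelihood test, adjusted by Benjamini-Hochberg over all genes. Log2 values of single samples used a prior count of 2. Alternatives used DESeq2 1.42.0, limma 3.58.1, other scalings, filters and covariates, and samples left out. Gene structures came from GENCODE mouse release 21. Figures used matplotlib 3.10.9 under Python 3.11.15. Named genes were the 5 genes, *Fos*, and in each partner list the 3 most abundant and those at an unadjusted p under 0.05, markers where needed, and the 3 genes outside the lists most like each gene by Pearson's r; *Lmnb1*, *Cdk5r2* and *Nt5c2* were named after their values were seen. One gene that this rule names is not reported here. Members and lists were chosen with earlier results of these data known. The 95% intervals carry the spread between samples, whereas the floor of 3 counts covers counting error only, since PCR copies are not independent molecules.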

Additional observations from a re-analysis of the deposited data

Results flagged for a closer look

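Among 11 measures in 2 groups of 4 samples, 22 sets in all, 4 values lay far from the others of their group, by the gap to the nearest sample as a share of the range of the group (Dixon's criterion at the 95% level, which chance meets in about 1 in 20 sets). Of these, 3 belong to vehicle 1, the sample with low PV+ interneuron markers. Its share of *Nefl* in the neurofilament TPM was 58.1%, with a gap of 0.946 of the range, and its share of *Ina* was 11.3%, with a gap of 0.879. Its TPM ratio of *Nefl* to *Nefh* was 3.27, with a gap of 0.917. In the CNO group, the ratio of *Nefl* to *Nefh* in CNO 4, the sample with the highest marker index, was 1.87, with a gap of 0.85.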

How the results depend on the processing

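The count of genes called was 0, and it was 12 with robust dispersion and the likelihood ratio test, 10 with DESeq2, 4 without a filter on low counts, 1 with at least 10 counts in all samples, and 0 to 2 when samples were left out, 2 without CNO 1. *Nefl* and *Nefh* kept their direction under every alternative run, at −0.196 to −0.0462 and 0.12 to 0.22. *Nefm* turned negative with library size only (−0.0472), limma on log2(TPM + 1) (−0.0592) or log2(TPM + 0.1) (−0.0594) and the marker index as a covariate (−0.0970), and ran from −0.0595 to 0.0613 when samples were left out. *Ina* turned to −0.0459 with the marker index, and *Prph* ran from −0.205 to 0.0679 when samples were left out. The cause of these turns was not tested. With vehicle samples only, the pairs in the order of levels differed by 1.32 (*Nefl* over *Nefh*), 0.30 (*Nefh* over *Ina*), 0.18 (*Ina* over *Nefm*) and 8.22 (*Nefm* over *Prph*), and none could pass with 4 samples. The replicate number as a block left 0 genes called and gave −0.13, 0.011, 0.20, 0.26 and −0.016 for *Nefl*, *Nefm*, *Nefh*, *Ina* and *Prph*. Same-numbered samples correlated at 0.026, −0.030, 0.16 and 0.24 in their deviations, and only replicate 3 correlated best with its own number, so the numbers were not taken as pairs. The summed and reassigned counts of overlapping genes were added after the data were seen. The low counts of *Prph* limit what can be said of it.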
